A study of Mus musculus with 9 samples.

Results

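The STAT factors and SOCS inhibitors described here are 9 genes of cytokine signalling, measured in lung dendritic cells before and after a period in culture. They are the rows whose symbol is Stat2, Stat3, Stat4, Stat5a, Stat5b, Socs1, Socs2, Socs3 or Cish. These are 9 of the 45535 rows that carry a gene symbol, and all 9 were among the 18202 genes abundant enough to be tested. Most cytokine receptors hold Janus kinases (JAKs), which phosphorylate STAT proteins when the cytokine binds. Phosphorylated STATs form dimers, enter the nucleus and switch on genes, among them the genes of SOCS proteins and CIS (the product of Cish), which bind receptors or JAKs and shut the signal down. The level of a SOCS transcript is therefore widely used as a sign of recent STAT activity, and dendritic cells rely on this pathway for their growth, their response to interferons and their maturation.

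The samples were CD103+ DCs from lungs of mice of the genotype labelled C57/BL6j. Every mouse had received bleomycin, an agent that injures the lung and leads to fibrosis, and lungs were taken at 7 days. Cells were freed with collagenase and captured on magnetic beads, although the extraction text speaks of RNA of the whole lung. In 5 samples RNA was taken at once (before culture), and in 4 samples after 18 h in RPMI medium with serum and antibiotics and no added cytokine named in the labels (after culture). No sample from an untreated lung is used here. The labels do not say how many mice gave 1 sample, so p-values measure the spread between these samples, which may be technical.

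Depth ran from 14.7 to 35.3 M reads per sample in rows with a gene symbol. Among the 8 markers of type 1 conventional dendritic cells (cDC1), which carry CD103 in the lung, all were read in every sample, and their summed normalized count was 111774 to 137940 before and 16129 to 17485 after culture. Of the 8 markers 7 were lower after culture and Batf3 was higher (mean 511 before and 746 after). Wdfy4 made the largest part of the sum before culture (mean 75717, and 4761 after it). Transcripts of other cells were present too. Of the 8 other marker lists, 5 (neutrophil, NK cell, endothelial, fibroblast and epithelial) had lower sums after culture, without overlap between the groups. The T cell, B cell, and monocyte and macrophage sums overlapped. The monocyte and macrophage sum was 50562 to 86573 before and 43077 to 81068 after culture, above the cDC1 sum in every cultured sample. Sums over different genes do not give shares of cells, and the part of macrophages in the levels of the members was not tested. A change in a bulk sample can come from fewer cells of a type or from less RNA per cell, and these cannot be told apart here. Culture went with a change in most of the transcriptome: 68.8% of tested genes passed a limma adjusted p of 0.05 (34.2% were higher and 34.6% lower after culture), and 57.3% had groups that did not overlap.

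STAT dimers bind the sequence TTCNNNGAA, called the GAS element, and the complex that STAT2 forms with IRF9 in the interferon response binds elements whose core is GAAA, any 2 bases and GAAA again, called the ISRE. Both were searched on both strands of RefSeq promoter windows (GRCm38.p6, 250 bases before to 50 after each start), which hold 8 of the 9 members in 11 entries; Socs2 is not among them. A GAS element was found in the windows of Socs3 and Cish, and in 8.30% of all 32851 windows of this length. Cish holds 2 of them, and 0.457% of all windows hold at least 2. An ISRE core was found in windows of Socs1 (2 overlapping cores), Stat2 and the downstream start of Stat4, and in 3.44% of all windows. No match was found for Stat3, Stat5a or Stat5b. A match says only that the letters are there, and binding was not measured. The stretches that hold the matches are shown for the members whose levels differ most between the groups, and for Socs1 as the SOCS gene whose groups overlapped, with the matched letters in capitals.
Socs3, bases -250 to -86 from its RefSeq start, chr11:117969452-117969616, minus strand, in an intron of a noncoding Socs3 transcript and in no annotated exon: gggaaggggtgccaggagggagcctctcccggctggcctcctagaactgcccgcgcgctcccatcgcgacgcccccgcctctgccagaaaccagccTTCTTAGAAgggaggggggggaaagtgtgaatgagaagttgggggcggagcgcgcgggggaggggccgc
Cish, 20 bases from its RefSeq start, chr9:107296659-107296678, plus strand, in an annotated exon of the 5′ UTR, with Gm17040 annotated on the other strand: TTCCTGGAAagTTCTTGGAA
Socs1, bases -250 to -1, chr16:10785537-10785786, minus strand, in no annotated transcript: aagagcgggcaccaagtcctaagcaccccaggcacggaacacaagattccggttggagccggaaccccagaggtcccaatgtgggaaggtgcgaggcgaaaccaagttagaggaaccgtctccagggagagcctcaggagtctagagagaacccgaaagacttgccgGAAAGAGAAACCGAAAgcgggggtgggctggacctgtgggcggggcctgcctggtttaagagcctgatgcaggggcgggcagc
Stat4, bases -250 to -1 from its downstream start, chr1:52007990-52008239, plus strand, in an intron of the longer Stat4 gene model: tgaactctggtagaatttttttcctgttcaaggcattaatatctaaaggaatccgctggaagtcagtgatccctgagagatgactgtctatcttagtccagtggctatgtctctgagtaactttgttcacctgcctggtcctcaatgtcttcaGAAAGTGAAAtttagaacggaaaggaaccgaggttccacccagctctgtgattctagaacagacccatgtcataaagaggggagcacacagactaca

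After culture 5 members were higher, 2 lower, and 2 did not pass the test. The 5 higher members were Stat4, Socs2, Stat3, Stat5a and Stat5b, and the 2 lower ones were Socs3 and Cish. That is 7 of 9, where 68.8% of all tested genes passed. The groups did not overlap for the same 7 members, against 57.3% of all genes. The SOCS genes moved in opposite directions, whereas none of the 5 STAT genes fell. The median log2 fold change was 0.44 over the 5 STAT genes and -1.12 over the 4 SOCS genes, beside 0.00647 over all tested genes. The values in every sample are shown in the plot of normalized counts by sample.

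**Figure D1:**
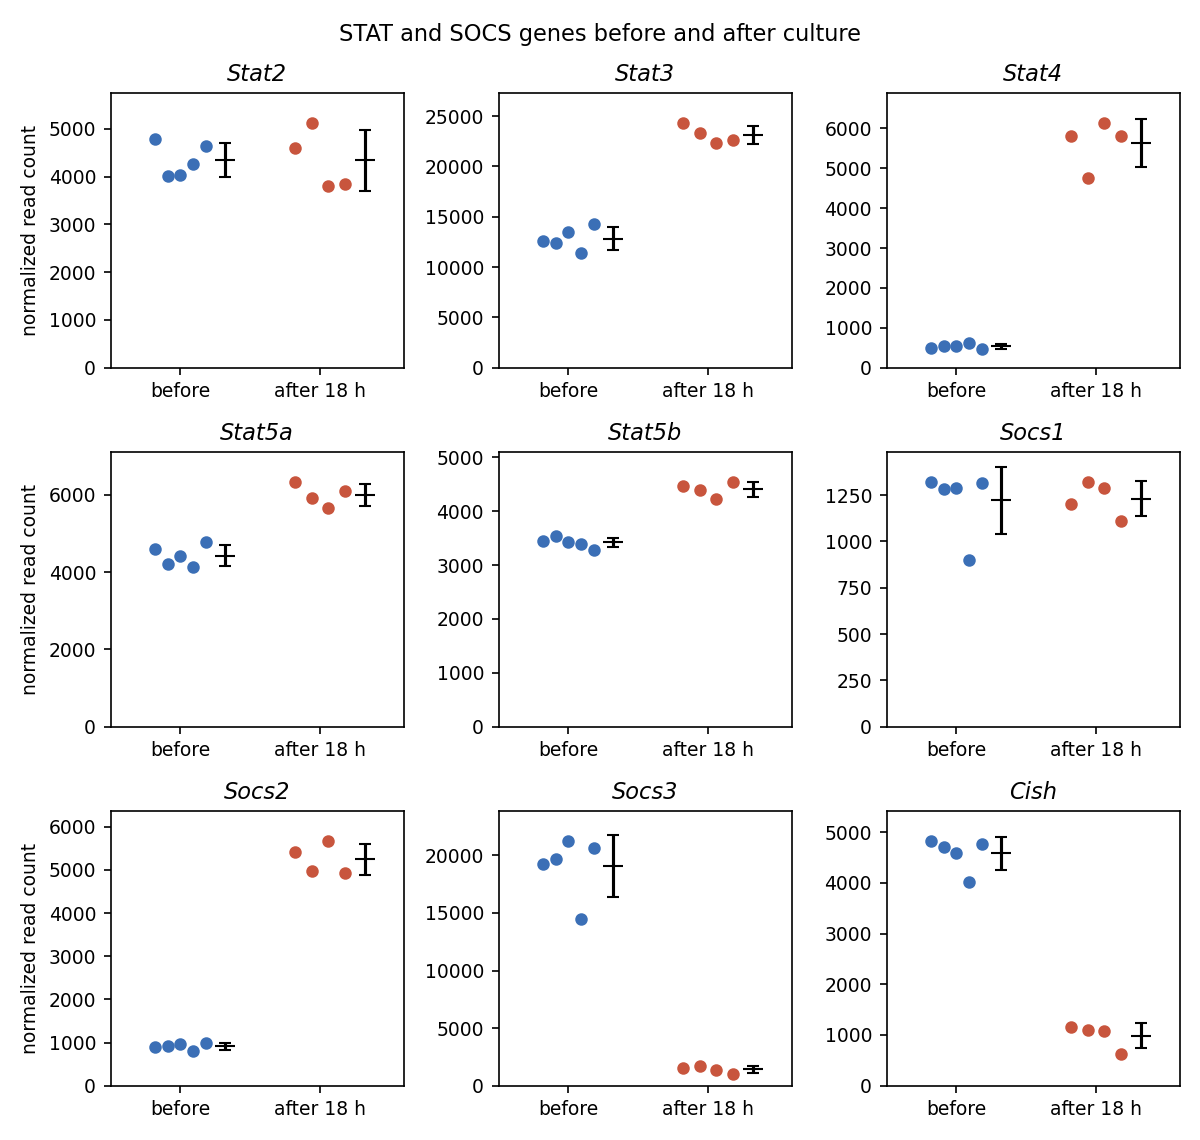
Normalized read count of each member (vertical axis, from 0) in the 5 samples before culture (blue) and the 4 after 18 h (red), replicates in label order from left to right, with the mean and SD as a bar. Groups are apart for 7 genes and overlap for Stat2 and Socs1.

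Socs3 fell the most of the members. Its protein binds receptors of the IL-6 family and blocks the attached JAKs, and its gene is a textbook target of STAT3. Socs3 (chr11:117966079-117970047, minus strand, GRCm38) had normalized counts of 19281, 19645, 21256, 14490 and 20628 in replicates 1 to 5 before culture. After culture it had 1573, 1738, 1356 and 1013 in replicates 1 to 4. The lowest sample before culture was thus far above the highest one after it. The mean went from 19060 ± 2672 (SD, n = 5) to 1420 ± 313 (SD, n = 4), which is 13.4-fold lower, with a log2 fold change of -3.76 (standard error 0.148, limma adjusted p = 1.15e-10). The size of this change was at or above that of 97.7% of all tested genes. Markers of neutrophils, cells that also express Socs3, moved with it. All 8 tested neutrophil markers of 10 on the list fell, and their summed normalized count was 14393 to 25089 before and 944 to 1916 after culture, 13.6-fold lower. Csf3r, one of these markers and the receptor of granulocyte colony-stimulating factor, was 5.54-fold lower. Among the 5 samples before culture the neutrophil sum and Socs3 ranked the replicates in 1 order (4, 1, 2, 5, 3 from lowest to highest). After culture the orders were 3, 4, 1, 2 for the neutrophil sum and 4, 3, 1, 2 for Socs3. The part of neutrophil RNA in the fall of Socs3 was not tested.

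Cish fell as well. Its product CIS is induced by STAT5 and dampens signals from receptors that use STAT5. Cish (chr9:107296026-107302784, plus strand) had 4827, 4706, 4582, 4025 and 4763 normalized counts before culture. After culture it had 1153, 1093, 1070 and 620, so the groups were far apart and replicate 4 was the lowest of the cultured samples. The mean went from 4581 ± 323 to 984 ± 245 (SD, n = 5 and n = 4), 4.65-fold lower, with a log2 fold change of -2.26 (standard error 0.151, limma adjusted p = 1.95e-08). NK cell markers, another source of STAT5-driven transcripts, fell too: 8 of 10 passed and their sum was 2810 to 5175 before and 982 to 1600 after culture. Before culture the NK cell sum was highest in replicate 4 (5175), where Cish was lowest (4025). After culture the NK cell sum was highest in replicate 3 (1600), where Cish ranked 3 of 4 from the highest (1070). T cell markers overlapped between the groups, with sums of 7957 to 9679 before and 6869 to 8946 after culture. Their part in the Cish values was not tested.

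Socs2 went the other way. Its protein limits growth hormone signalling, and its transcript is a known marker of mature dendritic cells. Socs2 (chr10:95385362-95417180, minus strand) had 893, 917, 967, 794 and 986 normalized counts before and 5423, 4970, 5672 and 4926 after culture. Every cultured sample was above every uncultured one. The mean rose from 912 ± 75.5 to 5248 ± 361 (SD, n = 5 and n = 4), 5.76-fold, with a log2 fold change of 2.53 (standard error 0.0803, limma adjusted p = 1.75e-11). All 7 genes on the list of other mature dendritic cell markers (Ccr7, Fscn1, Ccl22, Cd274, Relb, Il4i1 and Cacnb3) also rose, with a sum 4.77-fold higher after culture. These markers were picked after their values were seen, and 34.2% of all tested genes were higher after culture. In the longest Socs2 transcript 7.23% of 50-base windows also occur in the pseudogene Gm9847, which had at most 5 reads in a sample.

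Socs1 was the member with the least sign of change among the SOCS genes. It blocks JAK catalytic activity and is induced by interferons. Socs1 (chr16:10782240-10785536, minus strand) had 1322, 1282, 1290, 902 and 1316 normalized counts before and 1205, 1319, 1289 and 1111 after culture. The groups overlapped, and replicate 4 before culture lay below all 8 other samples. Means were 1222 ± 180 and 1231 ± 93.7 (SD, n = 5 and n = 4). The log2 difference was 0.02 (SE 0.113) and did not pass (limma adjusted p = 0.877). After each sample's trend over GC content and transcript length was removed, Socs1 was higher after culture by 0.54 on the log2 scale (limma adjusted p = 3.80e-05), so its call depends on that correction.

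Stat4 rose the most of the members. STAT4 carries the IL-12 signal in T and NK cells and is also expressed in activated dendritic cells. Stat4 (chr1:51987148-52107189, plus strand) had 484, 546, 536, 630 and 465 normalized counts before culture. After culture it had 5810, 4760, 6137 and 5804. The lowest cultured sample was several times above the highest uncultured one, and the mean rose from 532 ± 64.5 to 5627 ± 599 (SD, n = 5 and n = 4), 10.6-fold. Its log2 fold change was 3.40 (SE 0.101, limma adjusted p = 1.03e-11), a size at or above that of 96.8% of tested genes. Of the lymphocytes known for Stat4, the NK cell marker sum was lower after culture, and the T cell sum overlapped between the groups, with 2 of 10 T cell markers higher and 4 lower. The part of these cells in the Stat4 values was not tested. Of the 50-base windows of the longest Stat4 transcript 28.6% also occur in Gm28177, an annotated transcript that overlaps Stat4. Reads in the shared part could be split by the counting. Gm28177 itself had 24.2 ± 6.77 normalized counts before culture (SD, n = 5) and 124 ± 37.8 after it (SD, n = 4).

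Stat3 also rose, from a level per kb of exon that was the highest of the 5 STAT genes in both groups. STAT3 carries signals of the IL-6 and IL-10 families and of FLT3 ligand, the growth factor of dendritic cells. Stat3 (chr11:100885098-100939540, minus strand) had 12614, 12370, 13523, 11355 and 14248 normalized counts before and 24324, 23284, 22318 and 22596 after culture. The groups did not overlap. The mean rose 1.80-fold, from 12822 ± 1110 to 23131 ± 893 (SD, n = 5 and n = 4), with a log2 fold change of 0.85 (standard error 0.0809, limma adjusted p = 6.31e-07). Stat3 and its inhibitor gene Socs3 thus changed in opposite directions in the same samples.

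Stat5a and Stat5b encode close paralogues that carry signals of GM-CSF and of the IL-2 family. They lie 8626 bases apart on chromosome 11 (Stat5b at chr11:100780731-100850724 on the minus strand, Stat5a at chr11:100859351-100885169 on the plus strand). Stat5a had 4607, 4206, 4420, 4129 and 4770 normalized counts before and 6333, 5908, 5649 and 6085 after culture. Stat5b had 3455, 3534, 3427, 3391 and 3286 before and 4459, 4390, 4226 and 4544 after culture. Both rose modestly and without overlap. Stat5a rose 1.35-fold (log2 fold change 0.44, SE 0.0694, limma adjusted p = 8.09e-05) and Stat5b 1.29-fold (0.37, SE 0.0603, limma adjusted p = 1.17e-04). Under the GC and length correction both log2 fold changes were larger, 0.95 for Stat5a and 0.67 for Stat5b. The paralogues share sequence: 10.8% of the 50-base windows of Stat5a occur in Stat5b and 11.8% the other way, so a part of their reads may be split between them. Stat5a and Stat3 overlap by 72 bases at their 3′ ends on opposite strands.

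Stat2 was the STAT gene whose groups overlapped. STAT2 acts with IRF9 in the response to type I interferon. Stat2 (chr10:128270559-128292849, plus strand) had 4787, 4017, 4042, 4272 and 4641 normalized counts before and 4605, 5127, 3814 and 3838 after culture. The highest and the lowest of all 9 values were both after culture. Means were 4352 ± 349 and 4346 ± 637 (SD, n = 5 and n = 4). The log2 difference was -0.0097 (SE 0.0976) and did not pass (limma adjusted p = 0.936). The GC and length correction gave 0.22 (limma adjusted p = 0.0438), so the call of Stat2 also depends on that correction.

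Levels of different genes were compared per kb of exon, over all annotated exons of a gene, which sets the scale of genes with many isoforms (Socs2 has 9.53 kb) lower. The longest single transcript of Socs2 has 4242 bases, so the ranks depend on this choice of length. Before culture Socs3 led with 6593 ± 924 normalized counts per kb (SD, n = 5), followed by Stat3 with 1346 ± 116, and neither range overlapped its neighbour's. Stat2, Cish, Stat5a and Stat5b followed at 734 ± 58.9, 714 ± 50.4, 621 ± 37.6 and 617 ± 16.4, and each of them overlapped the next. Socs1 (420 ± 61.8), Stat4 (137 ± 16.7) and Socs2 (95.6 ± 7.92) came last, each apart from its neighbours. The order after culture was different at both ends. Stat3 was now first (2428 ± 93.7, SD, n = 4) and Stat4 second (1453 ± 155), each without overlap to the next. Stat5a (840 ± 40.5), Stat5b (795 ± 24.3) and Stat2 (733 ± 108) overlapped in turn. Socs2 (551 ± 37.9), Socs3 (491 ± 108) and Socs1 (423 ± 32.2) also overlapped in turn, and Cish was last (153 ± 38.2). Socs3 and Cish fell from ranks 1 and 4 to ranks 7 and 9, while Stat4 and Socs2 moved from ranks 8 and 9 to ranks 2 and 6.

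**Figure D2:**
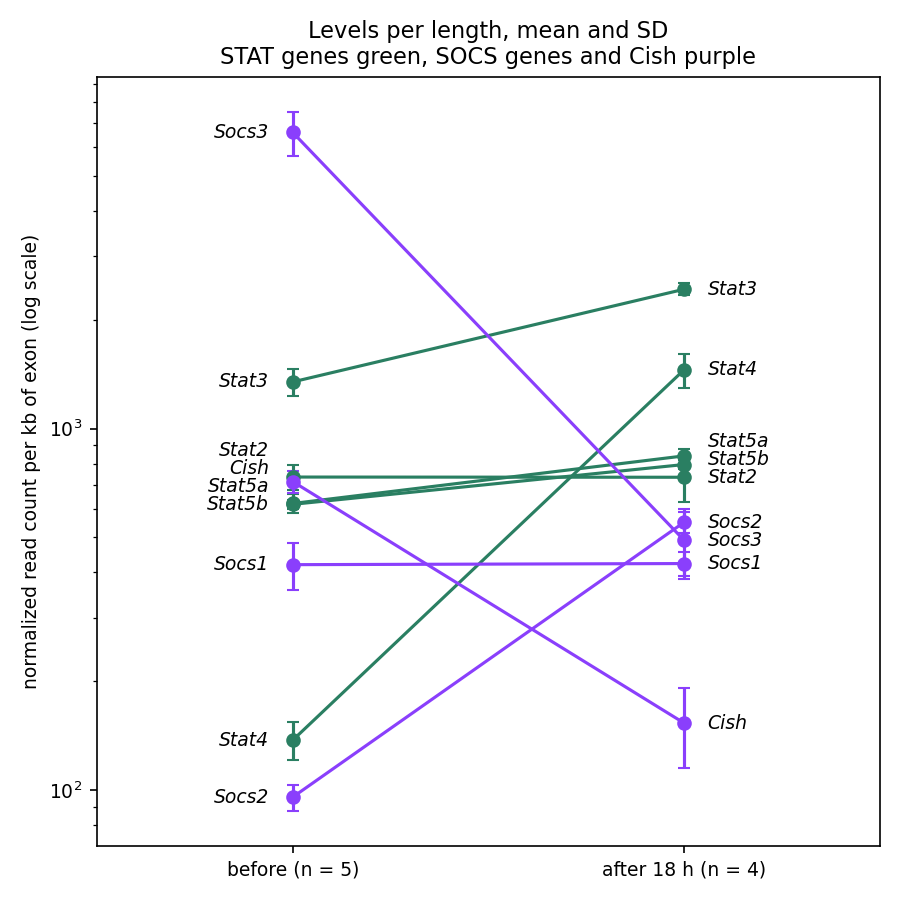
Mean normalized read count per kb of exon on a log axis, with SD, before culture (n = 5) and after 18 h (n = 4). STAT genes are green, SOCS genes and Cish purple. Lines for Socs3 and Cish run down, those for Stat4 and Socs2 run up, and Socs3 is first of 9 before and 7th after culture.

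Ratios of a pair of related members within a sample do not depend on the scaling between samples. Socs3 and Socs1 are the SOCS proteins with a kinase inhibitory region. Socs3 counts were 14.6 to 16.5 times those of Socs1 before culture and 0.912 to 1.32 times after it. The mean log2 ratio went from 3.96 ± 0.0670 (SD, n = 5) to 0.18 ± 0.257 (SD, n = 4), a difference of -3.78 (two-sided exact permutation p = 0.0159, which is the lowest value that 5 against 4 samples can give). Cish and Socs2 are the closest relatives in the SOCS family and both are textbook STAT5 targets. Cish had 4.74 to 5.41 times the counts of Socs2 before culture and 0.126 to 0.220 times after it. Its log2 ratio went from 2.33 ± 0.0751 (SD, n = 5) to -2.45 ± 0.369 (SD, n = 4), a difference of -4.78 (exact two-sided permutation test, p = 0.0159). This ratio therefore reversed in all 4 cultured samples. Cish and Socs2 each separated the groups, in opposite directions, so their ratio had to separate them. Socs3 fell by far more than the whole range of Socs1, so that ratio had to separate the groups too. Both p-values thus follow from the values of the single genes and are not separate evidence of a change. The log2 ratio of Stat5a to Stat5b was 0.37 ± 0.114 before and 0.44 ± 0.0420 after it (SD, n = 5 and n = 4). The difference of 0.0726 did not exceed the spread (exact two-sided permutation test, p = 0.238). It became 0.11 without replicate 5 before culture (exact permutation p = 0.0286) and 0.28 with the correction for GC content and length (exact permutation p = 0.0159). Over the 3 ratios, the Benjamini-Hochberg adjusted values were 0.0238 for Socs3 to Socs1, 0.0238 for Cish to Socs2 and 0.238 for Stat5a to Stat5b.

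**Figure D3:**
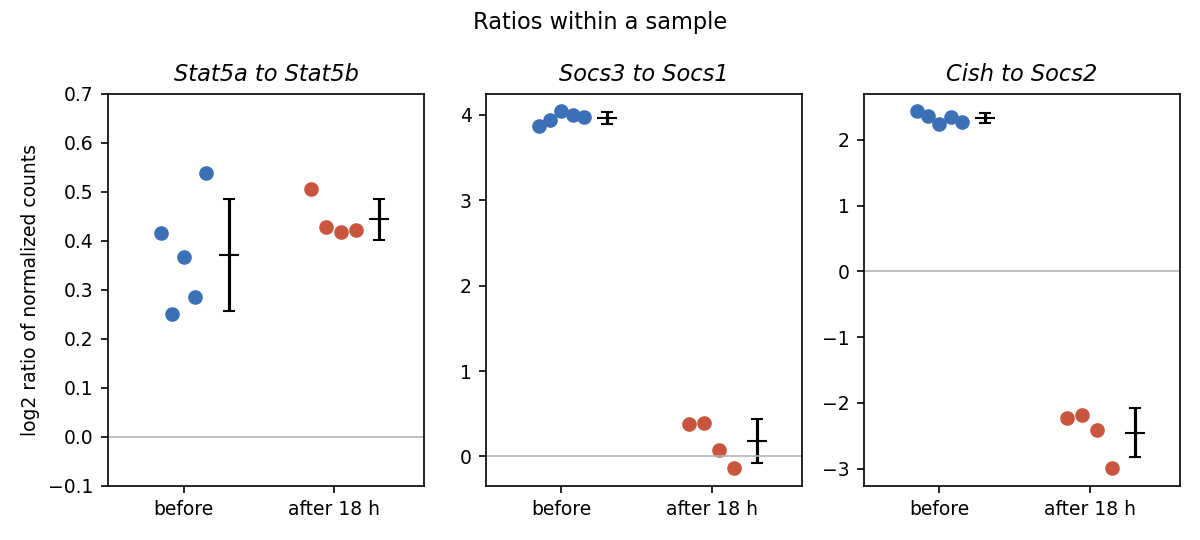
Log2 ratio of normalized counts of 2 members within each sample, before culture (blue, n = 5) and after 18 h (red, n = 4), with mean and SD. The vertical axes differ. Cish to Socs2 is above 0 in every sample before and below 0 in every sample after culture, and Stat5a to Stat5b overlaps between the groups.

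Within a group the members also varied in ways that were shared. Replicate 4 before culture was the lowest of its group for 6 of the 9 members (Stat3, Stat5a, Socs1, Socs2, Socs3 and Cish) and the highest for Stat4. Its deviation from the group mean was -0.42 for Socs1, -0.38 for Socs3 and -0.18 for Cish on the log2 scale, and 0.25 for Stat4. This sample also had the highest NK cell sum of all 9 samples (5175, where the other uncultured samples had 2810 to 3142), the lowest neutrophil sum of its group (14393) and the highest epithelial sum (37425). The part of these cells in the deviations was not tested. The coefficient of variation before culture was 14.0% for Socs3 and 14.7% for Socs1. After culture, replicate 4 was the lowest for Cish (-0.62), Socs3 (-0.46), Socs1 (-0.15) and Socs2 (-0.09). Replicate 3 after culture was the lowest for Stat2 (-0.18), Stat3 (-0.05), Stat5a (-0.08) and Stat5b (-0.06). Replicate 4 has library number 4 before culture and library number 5 after it. The deviations of these samples over all tested genes correlated at -0.04. Cish and Socs3 had the largest coefficients of variation after culture, 24.9% and 22.1%, and Stat5b had the smallest in both groups, 2.66% before and 3.06% after culture. Leaving out replicate 4 after culture gave log2 fold changes of -2.05 for Cish and -3.61 for Socs3, and both stayed past the threshold.

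**Figure D4:**
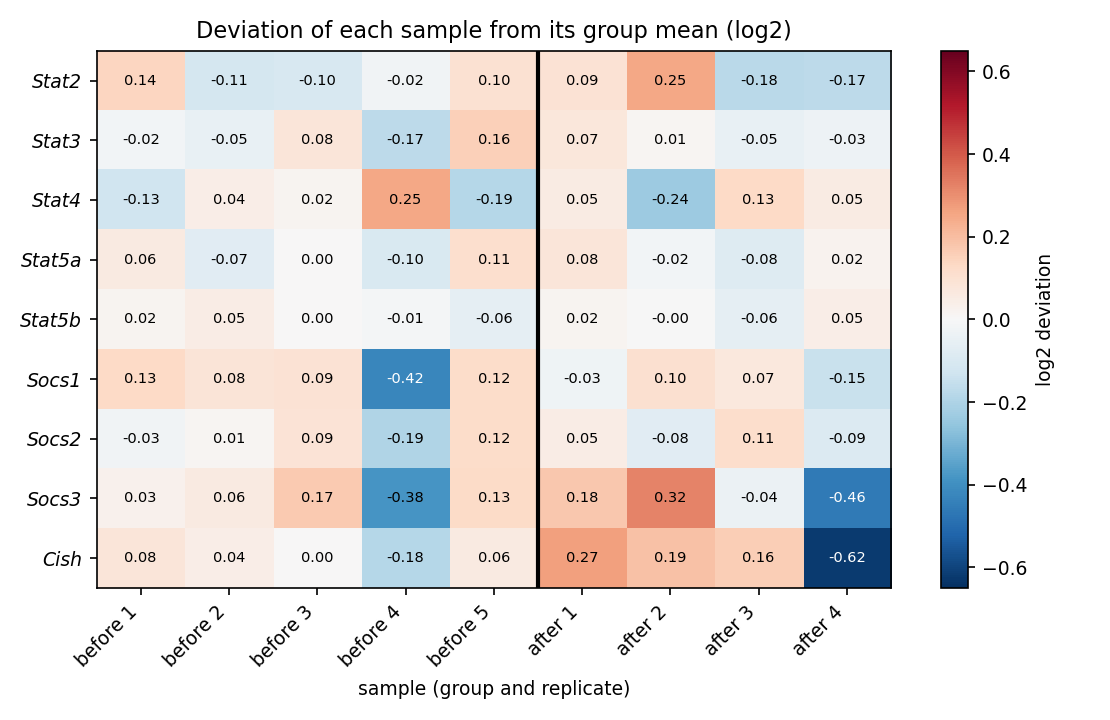
Deviation of each sample from the mean of its own group on the log2 scale (rows: members, columns: samples, colour: value, black line between the groups). Replicate 4 before culture is low for Socs1 and Socs3 and high for Stat4, and replicate 4 after culture is low for Cish and Socs3.

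The rest of the pathway was read from lists of 100 genes in 12 roles, of which 94 could be tested. After culture 34 (36.2%) were higher and 39 (41.5%) lower, beside 34.2% and 34.6% of all tested genes. The list median was -0.11 (log2). The plot of log2 fold changes by role shows each gene.

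**Figure D5:**
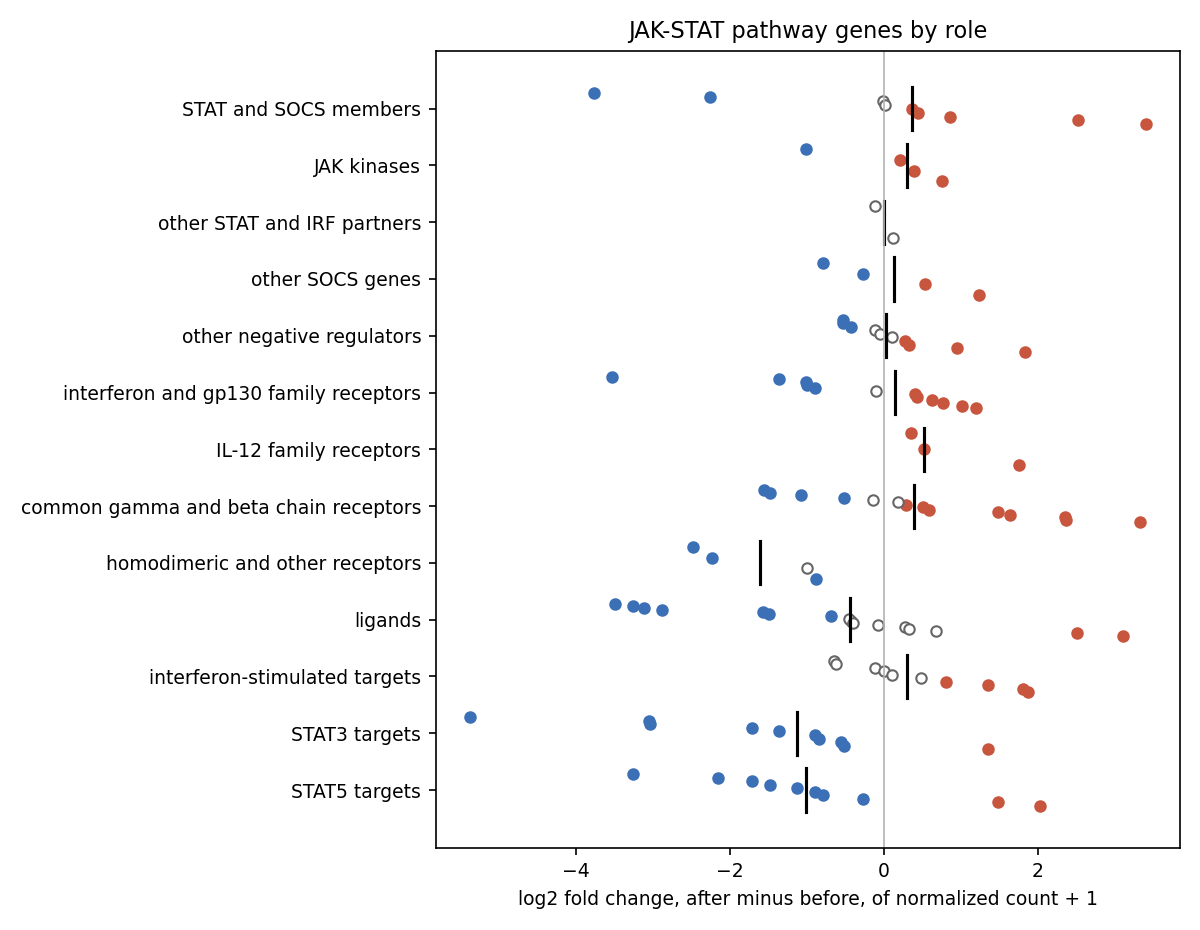
Log2 fold change (after minus before, of normalized count + 1) of each tested gene by role. Red points passed the test and were higher, blue points passed and were lower, open points did not pass, and black bars are medians. Most STAT3 and STAT5 target genes lie below 0, and receptors lie on both sides.

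Among the JAKs, 3 of 4 rose and 1 fell. Jak2, which serves the GM-CSF and growth hormone receptors, rose 1.70-fold (11097 ± 505 to 18840 ± 1614, SD, n = 5 and n = 4, log2 fold change 0.76). Tyk2, used by interferon and IL-12 receptors, rose 1.31-fold (0.39) and Jak1 1.15-fold (0.20). Jak3, which is tied to the common gamma chain of the IL-2 family receptors, fell 2.03-fold (3428 ± 386 to 1692 ± 146). Its log2 fold change of -1.01 was -0.35 with the correction for GC content and length.

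Stat6, which carries IL-4 signals, had normalized counts of 5765 ± 460 and 5306 ± 474 and did not pass (limma adjusted p = 0.219). Irf9, the partner of STAT2, had 2187 ± 89.3 before (SD, n = 5) and 2383 ± 315 after culture (SD, n = 4) and did not pass either (limma adjusted p = 0.253). With the correction for GC content and length, Stat6 was higher after culture by 0.17 on the log2 scale (limma adjusted p = 0.0233) and Irf9 by 0.22 (0.0213). Of the 4 other SOCS genes 2 rose and 2 fell. Socs4 rose 2.35-fold (1126 ± 75.9 to 2645 ± 150) and Socs6 1.45-fold, the latter only without that correction (log2 fold change 0.11 with it). Socs7 fell 1.73-fold and Socs5 1.21-fold, with log2 fold changes of -0.79 and -0.28. The log2 fold change of Socs7 was -0.38 with the correction.

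Of 10 other negative regulators 4 rose and 3 fell. Usp18, which blocks the type I interferon receptor, rose 3.54-fold (400 ± 52.2 to 1417 ± 144, SD, n = 5 and n = 4), and Pias3, an inhibitor of STAT3, rose 1.94-fold. Sh2b3, an adaptor that restrains JAK2, fell 1.45-fold. The phosphatase genes Ptpn11 and Ptpn1 fell 1.34-fold and 1.44-fold. The groups overlapped for Ptpn1, and the calls of Sh2b3 and Ptpn1 were lost with the correction for GC content and length.

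Of the 33 receptor genes tested on 4 lists, 17 were higher and 12 lower. Il15ra, which presents IL-15 to neighbouring cells, rose 10.2-fold (270 ± 15.01 to 2758 ± 606, SD, n = 5 and n = 4). Its ligand gene Il15 rose 8.70-fold (168 ± 18.7 to 1464 ± 271). Csf2rb2, the beta chain of mouse that serves IL-3 alone, rose 5.14-fold, and Csf2rb, the beta chain common to GM-CSF, IL-3 and IL-5, rose 3.10-fold. They share 19.4% and 18.4% of their 50-base windows with other genes, mostly each other, so their split is uncertain. The alpha chain gene of the GM-CSF receptor, Csf2ra, fell 2.13-fold. Il7r rose 5.08-fold and Il2ra 2.78-fold, while Il2rb, an NK and T cell receptor chain, fell 2.94-fold. Crlf2, which forms the TSLP receptor with Il7r, fell 2.83-fold and Il4ra 1.43-fold. Under the GC and length correction the log2 fold change of Crlf2 went from -1.48 to -0.73, and Il4ra lost its call.

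On the list of interferon and gp130 family receptors 6 of 12 rose and 5 fell. The shared signalling chain gp130, encoded by Il6st, rose 2.01-fold (6670 ± 745 to 13383 ± 993, SD, n = 5 and n = 4). Genes of chains that join gp130 in receptors were found on both sides. Il11ra1 rose 2.28-fold (60.0% of its windows are shared with other genes, so this value is uncertain) and Il27ra 1.58-fold. The 3 that fell were Il6ra by 2.00-fold, Osmr by 2.54-fold and Lifr by 11.5-fold (2460 ± 220 to 213 ± 31.6). Lifr is abundant in endothelium and Osmr in stroma, and all 9 endothelial and all 8 fibroblast markers were lower after culture, with sums 7.85-fold and 6.56-fold lower. Their part in these falls was not tested. Il10ra fell 2.02-fold and Ifngr1 1.85-fold. On the same list Il10rb (19.5% of its windows are shared with other genes), Ifngr2 and Ifnar1 rose 1.71-fold, 1.35-fold and 1.33-fold. All 3 IL-12 family receptor genes were called higher, with Il23r 3.29-fold up and with overlapping groups for Il12rb2 (332 ± 107 against 462 ± 60.3) and Il12rb1 (161 ± 20.0 against 207 ± 37.9). The latter 2 calls depend on single samples. The call of Il12rb1 was lost without replicate 2, 3, 4 or 5 before culture and without replicate 1 or 4 after it, with limma adjusted p from 0.0530 to 0.164. The call of Il12rb2 was lost without replicate 1 or 5 before culture and without replicate 1 or 2 after it, with limma adjusted p from 0.0503 to 0.0595. Of the 4 tested receptors of the homodimeric kind 3 fell, namely Csf3r (11.2% of windows shared with other genes), Lepr (4.62-fold) and Ghr (1.87-fold), and Epor did not pass (18.5 ± 8.02 against 9.16 ± 4.82).

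Of the 16 ligand genes tested, 8 were lower, 2 higher and 6 did not pass. Osm, which encodes oncostatin M, a ligand of gp130 made by myeloid cells, fell 9.69-fold (7532 ± 1803 to 777 ± 160, SD, n = 5 and n = 4). The neutrophil marker sum was 13.6-fold lower after culture, and the part of neutrophils in the fall of Osm was not tested. Il23a fell 9.31-fold. Il15 and Il7 (23.1 ± 5.62 to 133 ± 16.3) were the 2 that rose. Ifnb1, the type I interferon gene of most cells, was at 3 reads or fewer in all 9 samples.

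Target genes were read last, from lists chosen with earlier results of these data known. Of all tested genes 34.2% were higher and 34.6% lower after culture. On the STAT3 target list 9 of 10 genes fell and 1 rose, a list median of -1.12. Il4ra, 1 of the 9, is also on a receptor list and lost its call with the correction for GC content and length. Junb fell 8.26-fold (54663 ± 6742 to 6615 ± 735) and Fosl2 8.02-fold, and Pim1, a survival kinase, fell 3.30-fold. Junb and Fosl2 encode AP-1 subunits and respond to many signals other than STAT3. Lrg1 fell 42.2-fold (1364 ± 371 to 32.3 ± 11.03, SD, n = 5 and n = 4) and is also made by neutrophils and endothelium, whose markers fell; their part in it was not tested. Tnfrsf1b was the gene that rose, 2.57-fold. Under the GC and length correction the log2 fold changes of Junb and Lrg1 went from -3.04 to -2.39 and from -5.37 to -4.74. On the STAT5 target list 8 of 10 fell and 2 rose (median -1.01). Besides Pim1 and Osm, Cd24a fell 2.79-fold and Id1 4.43-fold, and the 2 that rose were Il2ra and Gbp4 (4.03-fold, with 12.8% of its windows shared with other genes). On the list of interferon-stimulated genes, which STAT2 and IRF9 serve, 4 of 10 rose, none fell past the threshold and 6 did not pass (median 0.30). Oasl1 rose 3.66-fold (534 ± 65.8 to 1954 ± 237), Mx1 3.52-fold and Ifit1 2.64-fold (7.13% of windows shared), while Isg15 (480 ± 91.0 against 528 ± 280) and Irf7 (1799 ± 216 against 1303 ± 788) overlapped between the groups. Oas2 (462 ± 84.0 against 891 ± 501) lost its call without replicate 1 after culture (limma adjusted p = 0.0502).

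The genes with a pattern closest to Stat4 over the 9 samples were Serpinb9 (Pearson r = 0.9996), Serpinb6b (0.9993) and Marf1 (0.9991). Those closest to Socs3 were Pi16 (0.9992), Pdlim7 (0.9984) and Adgra2 (0.9980). Serpinb9 went from 1736 ± 220 to 23273 ± 1891 and Pi16 from 537 ± 108 to 27.4 ± 5.55 (SD, n = 5 and n = 4). These correlations are a description of log2(normalized count + 1) over 2 separate groups of samples, which set most of their size. Of the 11785 genes compared, 297 had an r above 0.99 with Stat4 and 263 with Socs3.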

How the data were processed

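The table the authors deposited holds normalized counts for each gene, a signal of at least 0. The submitters' processing notes name DESeq2 and the genome build GRCm38. The aligner, the counting tool, the annotation and the use of strand are not given in the sources used here. Samples were grouped by their titles and columns matched by library name. In every column 1 read stood for a fixed value, between 0.758 and 1.79, and 100% of entries were whole reads within 1e-06, so reads were recovered. Rows with no symbol (3782) were left out; they held 6.43 to 10.9% of reads before and 3.87 to 5.46% after culture.

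Genes with a mean of at least 10 were tested on log2(value + 1) with limma 3.58.1 under R 4.3.3 (terms: group alone; trended variance prior; two-sided), and Benjamini-Hochberg adjustment ran over the full set of 18202 genes. Folds are ratios of group means, while log2 changes carry the pseudocount of 1 and understate those of low genes. Alternatives were other pseudocounts (0.5, 8), no filter or a minimum of 50, TMM, upper quartile and quantile scaling, edgeR 4.0.16 (12562 genes called, against 12524) and DESeq2 1.42.0 on recovered reads, a replicate block, leaving out each sample, and removal, per sample, of a spline over GC content and transcript length (96.5% of tested genes matched). Single ratios were tested by exact permutation (SciPy 1.17.1). The fit was also run on simulated counts in which few genes changed, unlike in these data, so it gives no error rate for them.

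One pathway gene is not reported here and was left out of the lists. The members, the lists of other pathway genes and the markers were chosen with earlier results of these data known. Named genes are all members, the JAK, STAT and SOCS genes, up to 4 genes of every other pathway list with the smallest adjusted p, and genes called in the direction opposite to the median of their list. The 3 genes most like the member that rose most and like the one that fell most are also named. The mature dendritic cell markers and the shared orders of Socs3 and the neutrophil sum were picked after their values were seen. The replicates named for Cish and the NK cell sum were picked in the same way. So were Batf3, Wdfy4, Il11ra1, Il27ra, Il10rb, Ifngr2, Ifnar1, Isg15, Irf7 and Ifnb1, and not all genes that meet the rule are printed. Gene positions, lengths and shared 50-base windows come from GENCODE M21 (GRCm38), which may not be the authors' annotation, and promoter sequences from RefSeq (GRCm38.p6).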

Additional observations from a re-analysis of the deposited data

Results flagged for a closer look

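In a group of samples, 1 value that stands far from the rest was found 11 times in 142 groups (the named genes and the 3 ratios, before and after culture). Chance alone flags about 1 group in 20, and 6 of the 11 fell on replicate 4 before culture. Among the members, Socs1 was 902 there (the other 4 uncultured samples had 1282 to 1322) and Cish was 620 in replicate 4 after culture (the others had 1070 to 1153).

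Of the other pathway genes, replicate 4 before culture was lowest for Csf2ra, at 7267 (others 11881 to 12483), and Crlf2, at 1204 (others 2007 to 2245). It was highest for Il12rb2, at 518 (others 252 to 325), Il2rb, at 5235 (others 3948 to 4139), and Gbp4, at 1205 (others 587 to 704). This sample had the highest NK cell marker sum of its group (5175) and the lowest sums of monocyte and macrophage markers (50562, others 65699.8 to 86573) and of neutrophil markers (14393). What part these cells have in the values was not tested.

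Usp18 was low in replicate 1 before culture, at 309 (others 410 to 441), and high in replicate 2 after culture, at 1632 (others 1328 to 1357). Socs7 was high in replicate 5 before culture, at 1717 (others 1389 to 1468). The log2 ratio of Stat5a to Stat5b was 0.506 in replicate 1 after culture (others 0.418 to 0.428).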

How the results depend on the processing

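The calls of Stat3, Stat4, Stat5a, Stat5b, Socs2, Socs3 and Cish kept their direction and stayed past the threshold under all 21 alternatives. The count of members past the threshold was 7 in each except the correction for GC content and length, where Stat2 and Socs1 made it 9. Stat2 changed sign, at 0.0191 with upper quartile scaling, 0.0144 with the replicate block by title number (limma adjusted p = 0.909) and 0.215 with the correction, and ran from -0.0931 to 0.0492 when a sample was left out. Socs1 ran from -0.0843 to 0.0698 when a sample was left out. Stat6 was 0.173 with the correction. Jak1 lost its call under the block by title number (limma adjusted p = 0.0603). The cause was not tested.

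The numbers in titles did not pair samples (correlations of deviations from -0.213 to 0.0807 over 4 pairs). Those in library names gave 0.0447 to 0.349, and 7 of 8 samples correlated best with their own number, a hint from the data and not the design. With 4 pairs the smallest exact p is 0.125, so the ratios could not pass with a replicate block: by title number -3.78 for Socs3 to Socs1 and -4.80 for Cish to Socs2, by library number -3.79 and -4.77. These blocked fits leave the unpaired uncultured sample without weight. The count of genes past the threshold was 11646 with the block by title number and 12836 by library number. The log2 ratio of Stat5a to Stat5b passed with the correction (0.279) and ran from 0.0427 to 0.114 when a sample was left out.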
